A study of Rattus norvegicus with 20 samples.

Results

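Diclofenac at reference concentration 1 was compared with diclofenac at 1/5 of that concentration after 6 h, in primary cultures of neonatal rat heart. The comparison rests on 6 of the 20 arrays of the series, chosen by their titles: 3 arrays of concentration 1 at 6 h and 3 arrays of concentration 1/5 at 6 h. The other arrays were untreated cultures (2 arrays), concentration 1/25 at 6 h (3 arrays), and concentrations 1, 1/5 and 1/25 at 24 h (3 arrays each). According to the labels the cells were kept in DMEM for 1 day before treatment, RNA was taken with Trizol, amplified linearly and labelled with Cy3, and each RNA was hybridised to a 1-colour Agilent rat array. All cultures were rat heart cells with no genetic change stated. What the reference concentration was in molar terms, and when the untreated cultures were harvested, is not in the labels. Nor is it stated whether the replicates were different cultures or litters. The p-values therefore describe the spread among arrays (all 20 unless stated), and that spread may be technical.

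Diclofenac belongs to the non-steroidal anti-inflammatory drugs and blocks the cyclooxygenases, the enzymes that convert arachidonic acid to the precursor of the prostaglandins and thromboxane. Cardiomyocytes are the contracting cells of the heart. Primary cultures of newborn heart also contain fibroblasts and smaller numbers of endothelial, smooth muscle, epicardial and blood-derived cells. The comparison asks how the gene expression of these cultures differed between the highest and the middle concentration at the earlier time. In such bulk RNA, fewer cells of a type and less RNA per cell cannot be told apart.

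Signals below are log2 of the scanner's processed signal minus the 75th percentile of the array, so 0 is the brightness of the spot that 75% of spots stay under, and a difference of 1 is a doubling. A difference is always concentration 1 minus concentration 1/5. Its error is the standard error from limma, a linear model whose spread was estimated over all 20 arrays. A gene was called when its adjusted p, by the Benjamini-Hochberg method over all 30514 genes tested, was under 0.05. A group was said not to overlap another when all 3 of its arrays lay on the same side of all 3 arrays of the other.

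The 6 arrays were bright. Of the 43379 spots on an array, 86.2% ± 1.82 (SD, n = 3) were well above background at concentration 1 and 84.2% ± 1.90 (SD, n = 3) at 1/5. The difference of 1.96 percentage points was within the spread of the arrays by a two-sided exact permutation test (p = 0.4, where 0.1 is the smallest p that 3 against 3 arrays can give). Arrays 1 and 2 of concentration 1 lay on a slide with the untreated arrays. Array 3 of concentration 1 shared its slide with all 3 arrays of 1/5, so slide and concentration were partly mixed, and values within that shared slide are given where they bear on a result. Across genes within pairs of arrays, Pearson's r was 0.974 to 0.978 within concentration 1, 0.950 to 0.969 within 1/5 and 0.933 to 0.975 between the groups. The second array of 1/5 stood farthest from the concentration 1 arrays (0.933 to 0.954), and the third array of 1/5 was slightly nearer to each of them (0.970 to 0.975) than to the arrays of its own group (0.950 and 0.969). Cardiomyocyte markers were well above background on all 6 arrays. They included Myh6 and Myh7 (the cardiac myosin heavy chains), Tnnt2 and Tnni3 (cardiac troponins), Actc1 (cardiac actin), Actn2, Myl7, Ryr2 (the calcium release channel) and Nppa.

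Only 2 of 30514 genes were called (0.00655%), and both were higher at concentration 1. They were Synpo and the spindlin-like gene LOC291521. None was called lower, and at an unadjusted p under 0.05 there were 725 genes higher (2.38%) and 130 lower (0.426%). The count depended on the fit: array weights, which ran from 0.0388 to 8.05, gave 3362 genes, and leaving out array 3 of 1/5 at 24 h, the dimmest array of the series, gave 7.

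Synpo encodes synaptopodin, an actin-associated protein known from kidney podocytes and from dendritic spines. Its probe lies at chr18:56625830-56625889 on build rn3. The 3 arrays of concentration 1 read 0.04, 0.40 and 0.15, and the 3 arrays of 1/5 read -3.42, -2.55 and -2.49. Every concentration 1 array was thus far above every 1/5 array, and all 6 were well above background. Synpo rose by 3.01 ± 0.43 (SE; 95% interval 2.11 to 3.92), an 8.08-fold difference, with an adjusted p of 0.0318 in limma. Within the shared slide the difference was 2.97 and was not called (adjusted p 0.33 in limma, and 0.41 with slide as a fixed block). The untreated arrays averaged -2.59 ± 0.39 (SD, n = 2) and the 1/25 arrays -2.16 ± 0.63 (SD, n = 3), both near the level at 1/5. The call did not hold when any of the 6 arrays was left out: the difference then stayed between 2.71 and 3.18, and the adjusted p in limma ran from 0.0561 to 0.18. On the 6 arrays alone the adjusted p was 0.119 in limma.

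LOC291521 is described in the array files as similar to spindlin, a family of proteins that read methylated histone tails and were first described on the spindle of the egg cell. The 3 arrays of concentration 1 read -4.32, -2.96 and -4.15 and the 3 arrays of 1/5 read -7.97, -7.92 and -8.24. All concentration 1 arrays were well above background and no 1/5 array was, so the level at 1/5 is only a bound. LOC291521 was at least 5.02-fold higher at concentration 1, from a mean of -3.81 ± 0.74 against a measured mean of -8.04 ± 0.17 (SD, n = 3 each). That bound sets the mean of concentration 1 against the lowest signal that counted as well above background on each 1/5 array. The measured difference was 4.23 ± 0.45 (95% interval 3.28 to 5.18), with an adjusted p of 0.0013 in limma. Both the interval and this p take the values at 1/5 as measured, although they are only bounds. The measured untreated mean was -8.05 and the 1/25 mean -7.19. How these compare with the level at 1/5, where no array was well above background, cannot be read. The call held without any of the 6 arrays (adjusted p in limma 0.00375 to 0.0197), but it did not hold in 4 other settings. These were a normexp background correction, where the difference was 2.42 (adjusted p 0.766 in limma), the shared slide alone, where it was 3.89 (adjusted p 0.0561), slide as a fixed block (adjusted p 0.123) and the 6 arrays alone (adjusted p 0.0934). Over all alternatives LOC291521 was called in 18 of 22 and Synpo in 11 of 23.

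**Figure D1:**
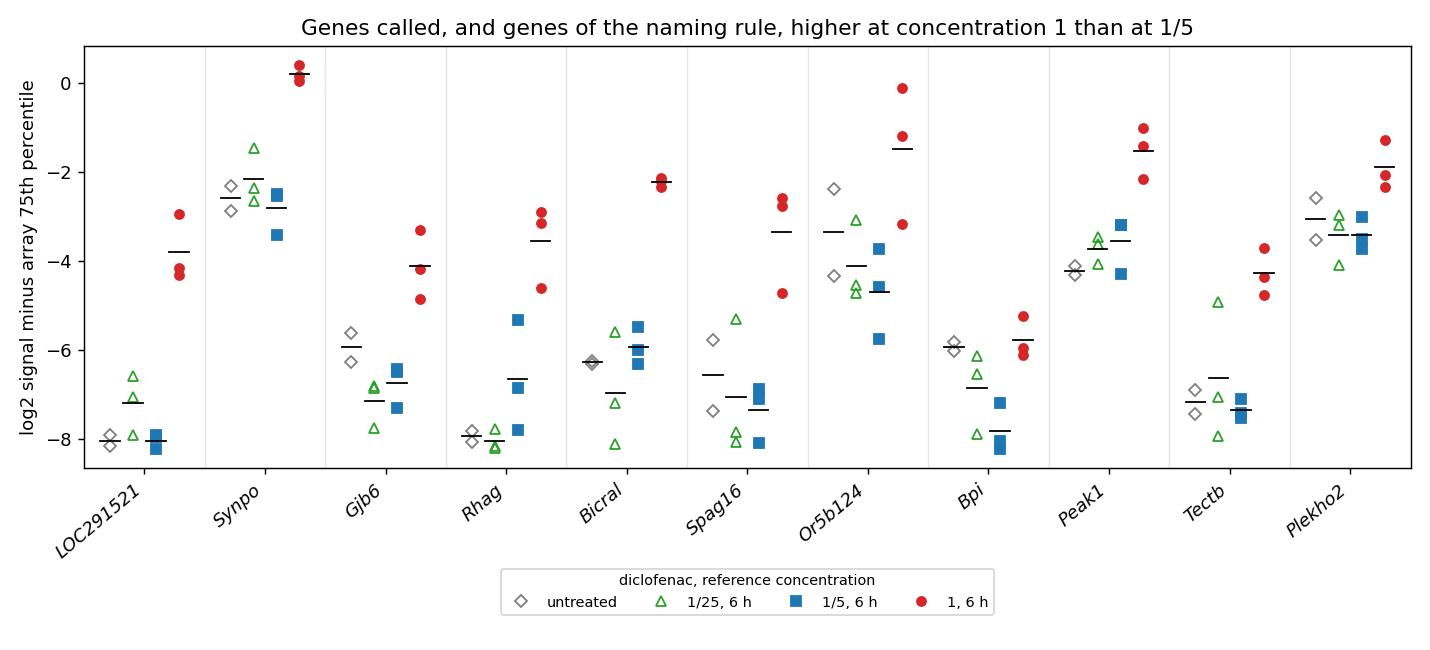
Log2 signal minus the array's 75th percentile (vertical axis) of LOC291521, Synpo and the 9 other genes named as highest at concentration 1. Each point is an array, black bars are group means, and the groups are untreated, 1/25, 1/5 and 1 at 6 h. The 3 concentration 1 arrays lay above the 3 arrays of 1/5 for every gene shown, and Synpo stood at 0.04 to 0.40 against -3.42 to -2.49.

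The rat genome holds many spindlin-like copies, and the arrays carry probes for 50 genes that the files describe as spindlin or similar to it, of which 43 were measured. This family was picked after the values had been seen. The probe letters are shown because some copies resemble each other, so that a probe's signal may not belong to a single copy, which was not tested. The letters are those of the deposited array files, 5′ to 3′, and capitals mark the longest stretch shared with the LOC291521 probe.
LOC291521: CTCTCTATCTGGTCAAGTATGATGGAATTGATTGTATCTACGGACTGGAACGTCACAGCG
XM_225832: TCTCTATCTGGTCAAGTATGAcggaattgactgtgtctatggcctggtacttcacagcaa
XM_229373: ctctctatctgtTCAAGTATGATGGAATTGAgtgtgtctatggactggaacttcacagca
XM_229476: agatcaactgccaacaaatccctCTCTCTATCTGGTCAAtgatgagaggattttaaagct
The first lies at chrUn:15913891-15913950 on build rn3, where Un collects sequence not placed on a chromosome, and 34 of the 43 measured genes lie on it. The XM_225832 probe matched that of LOC291521 at 51 of 59 aligned bases and the XM_229373 probe at 54 of 60. The XM_229476 probe shared a stretch of 16 bases with it and matched it at 25 of 37 aligned bases. Other probes did not align with it, such as that of XM_229530 (longest shared stretch 6 bases, difference 3.38).

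Of the 43 spindlin-like genes, 21 (48.8%) were higher by more than 1 at concentration 1, and none was lower by more than 1. The share higher was 4.53% for all genes and 12.8% for the 6103 genes of lowest mean signal. The family was dim, with a median signal of -4.98, and 4 members were not well above background on any 1/5 array. A gene counted as measured if its probe was well above background throughout at least 1 group. Every measured member met this at concentration 1, and several did not meet it at 1/5. Members could thus enter through the group where they were high, which can raise these shares, so they are only a description. The median difference of the family was 0.92 (0.77 under quantile normalization and 1.08 within the shared slide), against 0.02 for all genes. In 16 of the 43 (37.2%, against 11.9% of all genes and 1034 of the 6103 dimmest) the concentration 1 arrays lay wholly above the 1/5 arrays. In a single gene, LOC682571, they lay wholly below, with a difference of -0.35. Only LOC291521 was called. The gene XM_225832 read -3.60, -3.35 and -3.98 at concentration 1 and -8.03, -7.82 and -8.26 at 1/5, where no array was well above background. It was at least 5.64-fold higher, with a measured difference of 4.39 ± 0.81 and an adjusted p of 0.115 in limma. XM_229476 was at least 5.56-fold higher, from -3.08, -3.92 and -3.85 against -5.92, -7.96 and -7.49 (adjusted p 0.0734 in limma). XM_229373 read -4.00, -1.96 and -3.04 against -5.38, -6.64 and -5.67, a difference of 2.90 ± 0.81. The named members Spin1 and Spin2a differed by 0.41 and 0.53. The untreated means of XM_225832 and XM_229476 were -7.95 and -7.47. Neither gene was well above background on any 1/5 array, so how the untreated level compares with that at 1/5 cannot be read.

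**Figure D2:**
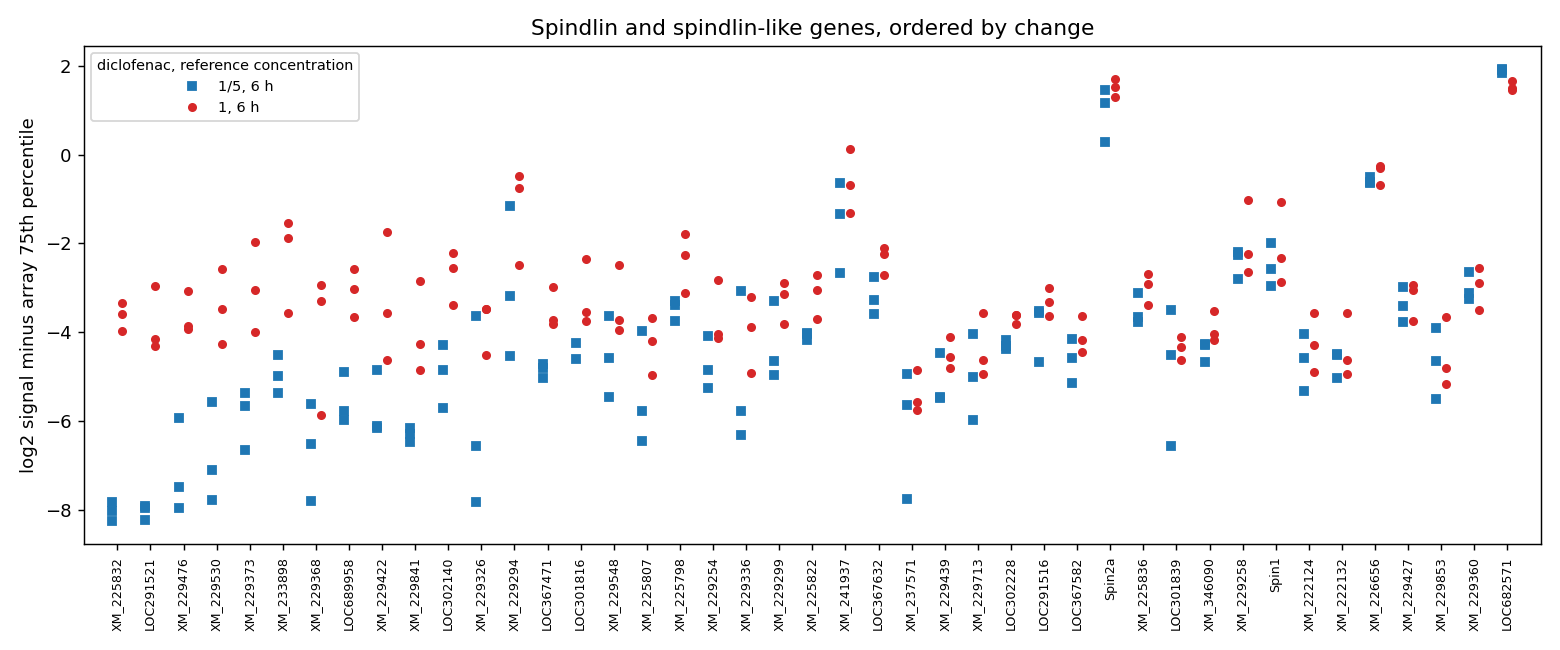
Log2 signal minus the array's 75th percentile (vertical axis) of the 43 measured spindlin-like genes on the 3 arrays of 1/5 and the 3 arrays of concentration 1, ordered by their difference. The difference was 4.39 for XM_225832 and 4.23 for LOC291521 and ran down to -0.35.

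The other genes that the naming rule took as highest at concentration 1 did not pass the threshold and are given as values. Gjb6, which encodes the gap junction protein connexin 30, read -4.86, -3.31 and -4.19 against -6.50, -7.31 and -6.44 at 1/5, where it was not well above background. It was at least 4.05-fold higher (difference 2.63 ± 0.44, adjusted p 0.0734 in limma). Bicral, a subunit of a BAF-type chromatin remodelling complex, had the tightest values at concentration 1. It read -2.21, -2.14 and -2.34 against -6.32, -5.99 and -5.49, a difference of 3.70 ± 0.67 with an adjusted p of 0.115 in limma, and 1 of its 3 arrays at 1/5 was well above background. The concentration 1 arrays of Bicral stood more than 3 units above every 1/5 array. Its measured untreated mean was -6.28, but with most 1/5 arrays not well above background it cannot be compared with the level there. In the fit on the 6 arrays alone, Bicral and XM_225832 were the 2 genes called, and neither Synpo nor LOC291521 was.

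Rhag, the Rh-associated glycoprotein of the red cell membrane, read -4.61, -3.16 and -2.89 against -6.85, -7.81 and -5.32 (difference 3.11 ± 0.57, adjusted p 0.115 in limma). Spag16, a protein of the sperm tail axoneme, read -2.58, -4.72 and -2.77 against -6.89, -8.09 and -7.10 and was at least 6.89-fold higher. Both values depended on the probe that stood for the gene: with no filter on dim probes the difference was -0.19 for Rhag and 0.12 for Spag16. Tectb, which encodes beta-tectorin of the inner ear, was at least 3.63-fold higher (difference 3.07 ± 0.73). Or5b124, an olfactory receptor, differed by 3.20 ± 0.70, and Bpi, an antibacterial protein of neutrophils, was at least 1.29-fold higher. Among genes well above background on all 6 arrays, Peak1, a pseudokinase of the actin cytoskeleton, read -2.16, -1.02 and -1.43 against -3.18, -4.30 and -3.19, and Plekho2 differed by 1.52 ± 0.37. For all of these the 2 groups did not overlap, a condition of the naming rule that 26.1% of all genes met in either direction.

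No gene was called lower, and the 10 named by the rule in that direction had smaller differences, of -1.00 to -1.68. Nog encodes noggin, a secreted inhibitor of bone morphogenetic proteins. It read -1.46, -2.41 and -1.86 at concentration 1 and -0.52, -0.55 and -1.15 at 1/5 (difference -1.17 ± 0.46, adjusted p 1 in limma), while a dimmer probe of the gene differed the other way (0.78). Pura, a single-stranded DNA and RNA binding protein, read -0.41, -0.35 and -0.47 against 0.50, 0.95 and 0.38, and its other probes gave 0.31 and -0.26. For both genes the groups were separate on the brightest probe only. Rab40b, a small GTPase of the Rab family, read -1.32, -1.40 and -1.27 against -0.20, 0.05 and -0.79. Zbtb41, a zinc finger protein, differed by -1.13 ± 0.54, and Atad5, which unloads the sliding clamp after DNA replication, by -1.00 ± 0.48 with -0.06 at its other probe.

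The blood cell genes Ngp (a neutrophil granule protein) and Nfe2 (a transcription factor of red cell and platelet precursors) differed by -1.28 ± 0.54 and -1.39 ± 0.63. Both were dim, with 1 of 3 arrays well above background at concentration 1. Trim34, of the tripartite motif family, read -5.73, -2.59 and -5.29 at 1/5, so its difference of -1.68 ± 0.67 leaned on the second array, without which it was -0.70. Or1o2b, an olfactory receptor, differed by -1.10 ± 0.37. Gtf2h2, a subunit of the transcription and repair factor TFIIH, read -0.38, -0.49 and -4.47 at concentration 1 and -0.26, -0.25 and -0.11 at 1/5. Only the third array of concentration 1 was low, and without it the difference of -1.57 became -0.23. Within the shared slide, where that array was the only one of concentration 1, limma called 8 genes lower, Gtf2h2 among them, and none higher. The spread of that lone array was assumed to be like that of the other groups. At an unadjusted p under 0.05 that setting gave 614 genes.

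Differences between the concentrations were related to how bright a gene was. With genes sorted by mean signal over all 20 arrays into 5 equal classes, the median difference from the dimmest class to the brightest was 0.28, 0.21, 0.09, -0.04 and -0.19. Of the 6103 dimmest genes, 12.8% were higher by more than 1, against 6.16%, 2.82%, 0.885% and 0% in the brighter classes. Of the 141 genes higher by more than 2, 121 were in the dimmest class, and 26 (18.4%, against 0.691% of all genes) were not well above background on any 1/5 array. Under quantile normalization, which forces the arrays to the same distribution, the class medians were -0.00, -0.02, -0.04, -0.04 and -0.01, while 7.62%, 4.24%, 3.06%, 1.49% and 0.0328% of the genes were higher by more than 1. The share of higher genes among those with an unadjusted p under 0.05 was 84.8% in the main scaling, 54.4% under quantile normalization and 70.5% with arrays centred on their median. That centring moved the median difference of all genes from 0.02 to -0.17, so directions are given relative to the 75th percentile unless stated.

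**Figure D3:**
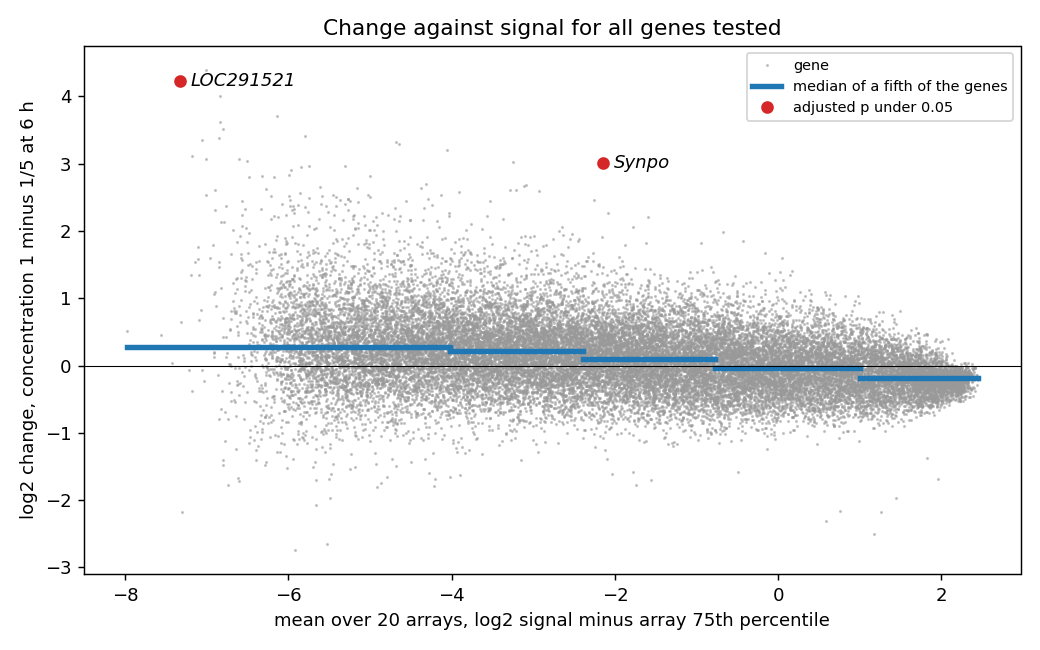
Difference from 1/5 to concentration 1 in log2 units (vertical axis) against mean log2 signal (horizontal axis) for 30514 genes. Blue marks the median difference in each of 5 classes of signal, from 0.28 in the dimmest to -0.19 in the brightest, and red marks Synpo and LOC291521.

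Groups did not overlap for 3637 genes that were higher (11.9%) and 4330 that were lower (14.2%). Many of the lower ones were saturated: 2476 genes were saturated on all 6 arrays, with differences of -0.54 to 0.04 and a median of -0.19. Of these, 1144 (46.2%) lay lower at concentration 1 without overlap and none higher. A saturated spot is at the scanner's ceiling, so its value moves with the array's 75th percentile, which was 0.20 higher (log2) at concentration 1. Among the 26325 genes saturated on no array, 3587 (13.6%) were higher and 2766 (10.5%) lower without overlap.

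The other arrays also had a part in the filter on dim probes, which kept a probe that was well above background throughout at least 1 group. So the genes with large differences were read there only where all 6 arrays were well above background, since these passed the filter whatever the other arrays read. The 33 such genes that were higher by more than 2 had median signals of -1.98 at concentration 1, -4.24 at 1/5, -3.90 in untreated cultures and -4.02 at 1/25. For 30 of them (90.9%, against 46.2% of the 28194 genes well above background on all 6 arrays) the untreated mean was nearer to 1/5 than to concentration 1, and for all 33 (against 54.7%) the 1/25 mean was. At 24 h their median difference between the same concentrations was 0.11, and 17 of 33 were higher at concentration 1 (51.5%, against 49.8%). The 103 such genes lower by more than 1 had median signals of -3.17 at concentration 1, -1.92 at 1/5, -2.41 in untreated cultures and -2.73 at 1/25. Their median difference at 24 h was -0.30. For 43 of them (41.7%, against 46.2%) the untreated mean was nearer to 1/5 than to concentration 1, and for 36 (35.0%, against 54.7%) the 1/25 mean was. At the same cutoff of 1, these shares were 70.9% and 78.4% for the 886 such genes that were higher.

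Among the genes that diclofenac acts on, neither cyclooxygenase was called. Ptgs1, the constitutive enzyme, read 1.58, 1.49 and 1.44 at concentration 1 and 1.49, 1.57 and 1.46 at 1/5. Its difference was -0.01 ± 0.57 (95% interval -1.20 to 1.19). Ptgs2, the inducible enzyme, read -2.40, -2.25 and -2.38 against -2.36, -2.28 and -2.88, a difference of 0.16 ± 0.61 (95% interval -1.12 to 1.44). For both, the arrays of the 2 concentrations overlapped, and the intervals include a difference of 1 either way.

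Of 19 measured prostanoid genes none was called, 2 lay higher and 2 lower without overlap (21.1%, against 26.1% of all genes), and the median difference was 0.12. The thromboxane receptor Tbxa2r differed by 1.26 and the lipoxygenase Alox15 by 0.74, both without overlap. The prostaglandin F receptor Ptgfr differed by -0.47. Cbr1, a carbonyl reductase that acts on prostaglandin E, read -1.05, -0.88 and -1.60 against -0.49, -0.02 and -0.60 (difference -0.81 ± 0.46, adjusted p 1 in limma). The prostacyclin and prostaglandin E synthases Ptgis and Ptges differed by 0.31 and 0.12.

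Over all 30 gene lists, 566 of 628 genes were measured and none was called, with a lowest adjusted p of 0.115 in limma. At an unadjusted p under 0.05, 17 (3.00%) were higher and none lower, against 2.80% of all genes in either direction. Groups did not overlap for 86 higher and 65 lower members (26.7%, against 26.1% of all genes). Of the lower ones 27 were saturated on all 6 arrays, and among the 460 members saturated on no array 83 were higher and 28 lower. List medians ran from -0.15 to 0.74. Dimmer lists had higher medians on the whole (Spearman's rho -0.71 between a list's median signal and its median difference, over 30 lists that share the same arrays, as a description). Under quantile normalization the list medians ran from -0.06 to 0.59.

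**Figure D4:**
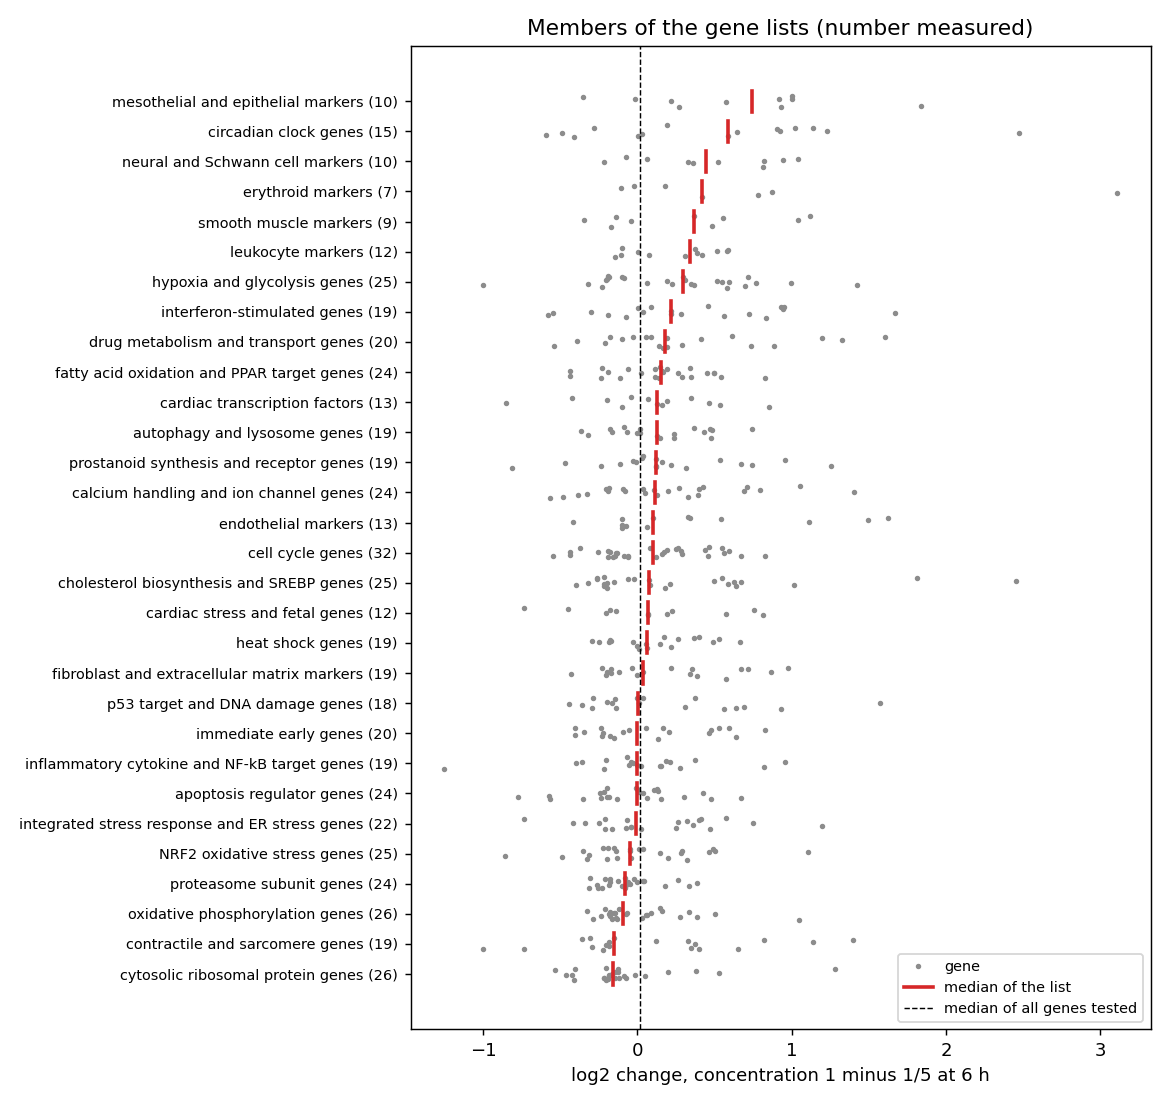
Difference from 1/5 to concentration 1 in log2 units (horizontal axis) of the measured members of 30 gene lists, each point a gene, with the list median in red and the median of all genes dashed at 0.02. Medians run from -0.15 for cytosolic ribosomal protein genes to 0.74 for mesothelial and epithelial markers.

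The contractile genes had a median difference of -0.15 (19 measured, 3 higher and 2 lower without overlap, 26.3% against 26.1% of all genes). The adult and fetal myosin heavy chains Myh6 and Myh7 varied widely between arrays. Myh6 read -0.59, -1.26 and -1.50 at concentration 1 and -0.20, 0.95 and -1.10 at 1/5, and Myh7 read 0.14, -0.21 and -0.74 against 0.42, 1.26 and -0.28. In both genes the second 1/5 array was the highest and the groups overlapped, with differences of -1.00 ± 0.83 and -0.73 ± 0.72. Ckm, the muscle creatine kinase, went the other way, with 0.35, -0.17 and -0.19 against -0.88, -1.76 and -1.56. Its groups did not overlap (difference 1.40 ± 0.50, unadjusted p 0.0132, adjusted p 1 in limma). Its untreated mean of 0.02 and 1/25 mean of -0.15 were near concentration 1, so here the arrays of 1/5 were the low ones. Mb, which encodes myoglobin, differed by 0.65 ± 0.31. Tnnt2, Actc1 and Nppb, the gene of B-type natriuretic peptide, were saturated on all 6 arrays, so no fold is given. Nppa, the gene of atrial natriuretic peptide, read 0.05, -0.39 and -0.65 against 0.12, 0.52 and -0.29, and the groups overlapped (difference -0.45 ± 0.76).

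**Figure D5:**
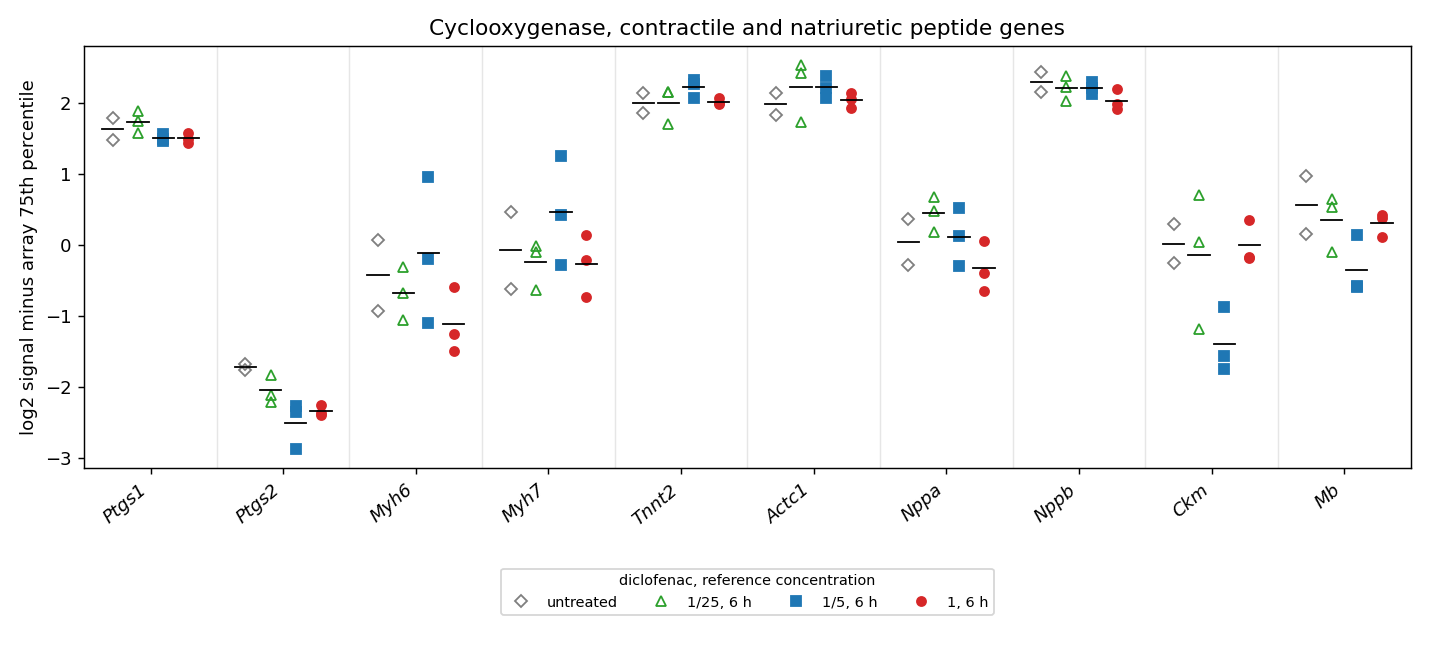
Log2 signal minus the array's 75th percentile (vertical axis) of 10 cyclooxygenase, contractile and natriuretic peptide genes, a point per array and a black bar per group mean, for untreated, 1/25, 1/5 and 1 at 6 h. The groups overlap for Ptgs1, Ptgs2, Myh6, Myh7 and Nppa, while Ckm at 1/5 lies at -1.76 to -0.88 and at concentration 1 at -0.19 to 0.35.

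Other cardiac lists gave small medians, none with a called member. Among 12 stress and fetal genes (median 0.07), Xirp2, an actin-binding protein of the intercalated disc, read -1.75, -2.16 and -1.98 against -2.47, -2.89 and -2.97, and Acta1, the skeletal actin re-expressed in stressed heart, differed by 0.75. Among 13 cardiac transcription factors (median 0.13) Tbx5 differed by 0.85 ± 0.49, Nkx2-5 by 0.53 ± 0.38 and Gata4 by -0.04. Among 24 calcium handling and channel genes (median 0.12), Gja5, which encodes connexin 40 of the conduction system, read -3.09, -2.88 and -3.46 against -4.31, -4.37 and -3.92. It differed without overlap (difference 1.06 ± 0.54), though its untreated and 1/25 means of -2.73 and -2.76 were above both groups. The pacemaker channel gene Hcn2 differed by 1.40 ± 0.75 and the sodium-calcium exchanger gene Slc8a1 by -0.57.

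Energy metabolism lists had small medians. The 24 genes of fatty acid oxidation had a median of 0.15, with 1 higher and 2 lower without overlap (12.5%, against 26.1% of all genes). Ppara, the nuclear receptor that drives this pathway, differed by -0.44 ± 0.34 and its coactivator Ppargc1a by 0.83. The 26 oxidative phosphorylation genes had a median of -0.10, which turned to 0.03 under quantile normalization, and Ndufs1, a subunit of complex I, read -2.95, -2.95 and -3.15 against -4.43, -4.36 and -3.40. Hypoxia and glycolysis genes had a median of 0.30 (25 measured; 5 higher and 6 lower without overlap, 44.0% against 26.1% of all genes). Relative to all genes the median was 0.28, and 0.13 without the first, 0.021 without the second and 0.46 without the third array of 1/5. Ldha, lactate dehydrogenase A, differed by 1.42 and Ndrg1, a hypoxia-induced gene, by 1.00 ± 0.42. Bnip3, a mitophagy receptor, differed by -1.00.

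Stress pathways were mixed. In the integrated stress response and ER stress list (22 measured, median -0.01), Ddit4, an inhibitor of mTORC1, read -1.91, -1.71 and -1.57 against -2.75, -2.53 and -2.14 (difference 0.75 ± 0.33, unadjusted p 0.0368). Sesn2, another inhibitor of mTORC1, differed by 1.20 ± 0.58, while the ER chaperones Hspa5 and Hsp90b1 differed by -0.06 and -0.04. Of the 25 NRF2 genes (median -0.05), Srxn1, which reduces oxidised peroxiredoxins, differed by 1.11 ± 0.78 and Gclm, the modifier subunit of the first enzyme of glutathione synthesis, by -0.85 ± 0.61. Nqo1 and Hmox1, often used as readouts of NRF2, differed by 0.32 and 0.28. The heat shock genes had a median of 0.06, with Hspa2 at 0.67 ± 0.32, and the 18 p53 targets a median of 0.00, with Perp at 1.57 ± 0.80. In the apoptosis list (median 0.00) 6 of 24 genes did not overlap (25.0%, against 26.1% of all genes), all of them lower, with the caspase genes Casp9 (-0.77) and Casp6 (-0.57). Cell cycle genes had a median of 0.10 over 32 genes and proteasome genes -0.08 over 24.

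Drug metabolism and inflammatory genes included several dim members with large differences and wide errors. The list of cholesterol synthesis genes had a median difference of 0.08 over 25 genes. Ephx1, microsomal epoxide hydrolase, read -3.05, -2.82 and -2.69 against -3.90, -4.84 and -3.81 (difference 1.33 ± 0.44, unadjusted p 0.00814). Its untreated mean was -3.06 and its 1/25 mean -2.96, as at concentration 1.

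Of 19 NF-kB and cytokine genes (median 0.00), Ccl2 differed by 0.96 ± 0.82 and the endothelial adhesion gene Sele by -1.25 ± 0.96. Of 19 interferon-stimulated genes (median 0.22, 4 higher and none lower without overlap, 21.1% against 26.1% of all genes), the transcription factor Irf1 read -2.09, -1.65 and -2.01 against -2.74, -3.08 and -2.73, and the guanylate-binding protein gene Gbp2 differed by 0.72 ± 0.33. Irf7 differed by 1.67 with overlapping groups. Immediate early genes had a median of 0.00, with Fos at 0.83, Fosb at 0.64 ± 0.46, Egr1 saturated, and Myc at -0.40 ± 0.29.

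Circadian clock genes had a median of 0.59, or 0.31 under quantile normalization and 0.30 within the shared slide. Of 15 measured, 3 were higher and 3 lower without overlap, against 11.9% higher and 14.2% lower of all genes. The clock is a transcription loop in which Bmal1 and Clock drive the Per and Cry genes, whose products repress them. Cry2 read -2.13, -2.64 and -1.53 at concentration 1 and -5.05, -4.12 and -4.54 at 1/5. All 6 arrays were well above background and the groups were far apart (difference 2.47 ± 0.59, unadjusted p 0.000671, adjusted p 0.824 in limma), and the untreated and 1/25 means of -4.23 and -4.93 were near 1/5. Per1 read -1.76, -2.29 and -1.37 against -3.16, -3.01 and -2.67 (difference 1.14 ± 0.38). Nr1d1 and Nr1d2, the REV-ERB repressors, differed by 1.23 and 1.02 with overlapping groups. Other loop members lay lower without overlap: Bmal1 by -0.41, Per2 by -0.49 and Cry1 by -0.59. The list's mean signal was -2.09 to -1.84 on the concentration 1 arrays and -2.64 to -2.25 on the 1/5 arrays. On genes well above background on all 6 arrays, its median relative to all genes was 0.11, against 0.57. Leaving out any 1 of the concentration 1 arrays gave 0.22 to 0.31, and leaving out the second 1/5 array 0.33.

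The 7 lists of markers of other cell types all had medians above 0, and no marker was called. With arrays centred on their median, those of fibroblasts and endothelium were below 0, under quantile normalization that of endothelium was -0.017, and within the shared slide that of fibroblasts was -0.15. The 10 measured mesothelial and epithelial markers had a median of 0.74, the highest of the 30 lists in the main scaling. Of the 10, 5 were higher and none lower without overlap, against 11.9% higher and 14.2% lower of all genes. The list's mean signals were -2.73 to -2.30 on the concentration 1 arrays and -3.61 to -3.02 on those of 1/5. Krt7 and Krt8, keratins of simple epithelia, differed by 1.84 ± 0.66 and 0.93 ± 0.39, and the epicardial factor Wt1 by 1.00. Krt7 read -2.93, -2.52 and -2.75 against -4.04, -6.15 and -3.53, and without the low second 1/5 array its difference was 1.05. Within the shared slide the list's median was 0.50, below the erythroid and neural lists (0.74 and 0.59). Relative to all genes it was 0.73, but 0.42 without the second 1/5 array, 0.48 without the first array of concentration 1 and 0.27 on genes well above background on all 6 arrays. Its untreated mean of -1.62 was above both groups. The 7 measured erythroid markers had a median of 0.42 and mean signals of -2.33 to -1.82 against -3.06 to -2.59, led by Rhag, while the erythroid regulators Klf1 and Gata1 differed by -0.02 and -0.11. For neural and Schwann cell markers (10 measured, median 0.44) the mean signals were -2.53 to -2.25 against -3.08 to -2.76.

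Endothelial markers (13 measured, median 0.10) had mean signals of -2.94 to -2.81 against -3.30 to -3.18. Cdh5, the endothelial cadherin, read -2.98, -3.59 and -3.15 against -4.98, -4.52 and -4.71 (difference 1.50 ± 0.47, unadjusted p 0.00529). Flt1, a VEGF receptor, differed by 1.11 ± 0.46 and Eng, endoglin, by 1.63, all without overlap, while Pecam1, Kdr and Vwf differed by 0.06, -0.07 and -0.10. Of 9 smooth muscle markers (median 0.37) the smooth muscle myosin gene Myh11 differed by 1.12 ± 0.53 and Cald1 was saturated. Fibroblast and matrix markers had a median of 0.04, with Col6a2 at 0.97, and Col1a1 and Col1a2 saturated. Leukocyte markers (12 measured) had a median of 0.34, with Cd163 at 0.38 ± 0.30. The part of signal level and of other cell types in these shifts was not tested. At the bright end, cytosolic ribosomal protein genes had a median of -0.15 over 26 genes, which was 0.00 under quantile normalization.

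The difference between concentrations was then set against the same difference at 24 h, as an interaction of concentration and time. A single gene, LOC291521, was called (0.00328% of 30514), and 1562 genes had an unadjusted p under 0.05. LOC291521 was well above background on the 3 arrays of concentration 1 at 6 h, on none of 1/5 at 6 h and on none of either concentration at 24 h (measured means -8.51 and -7.64). Its interaction term (adjusted p 0.0121 in limma) thus sets 1 measured level against 3 that are only bounds, and its size is not given as a fold. The call was lost with quantile normalization, a normexp background correction or robust moderation, and without any 1 of the 3 arrays of 1/5 at 6 h. For Synpo the difference was 0.28 at 24 h, and the difference of 2.73 ± 0.60 was not called (adjusted p 0.625 in limma). Tectb and Gjb6, named by the rule for the interaction, were not called (adjusted p 0.466 and 0.213 in limma). Neither was well above background on any 1/5 array at 6 h or any concentration 1 array at 24 h, so no size is given. In the other direction stood Igtp, an interferon-induced GTPase, and Chrnb1, a subunit of the muscle acetylcholine receptor. Igtp was not well above background on any of the 6 arrays at 6 h, and Chrnb1 differed by -0.30 ± 0.39 there. At 24 h both were well above background on all 3 arrays of concentration 1 and on none of 1/5. The 24 h arrays of the 2 concentrations lay on different slides from each other, so slide and concentration cannot be told apart at that time, and the third 1/5 array at 24 h was the dimmest of the series (64.1% of spots well above background).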

How the data were processed

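Sample titles put the 20 arrays into 7 groups. Per the file headers, the authors read the arrays with Agilent Feature Extraction 9.5.3.1, and the deposited intensity values are processed signals after background subtraction, not scaled between arrays. The authors' deposited values for the whole series hold a ratio to the untreated arrays and served as an alternative (lowest Pearson r of 0.968 with the scanner values of the same array). Probe positions are those of the files, on build rn3.

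Processed signals of non-control spots were put on the log2 scale minus the array's 75th percentile. Spots marked as outliers were left out (171 to 271 of 43379 on the 6 arrays), saturated spots were kept, and spots of a probe were averaged. Probes had to be well above background throughout at least 1 group, which left 35081 of 41012. Each gene took its brightest remaining probe, and 3712 genes had several. Symbols were updated by accession for 10735 probes, by symbol for 5571 and by synonym for 3729, and 20977 kept the name in the files. No 2 arrays held the same values.

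The fit used limma (3.58.1, R 4.3.3), one mean per group for each of the 7 groups, two-sided moderated tests and the Benjamini-Hochberg adjustment over 30514 genes (threshold 0.05). Python 3.11.15, pandas 2.3.3, numpy 2.4.6, scipy 1.17.1 and matplotlib 3.10.9 did the rest, and the fit was tested on simulated data. The number of arrays limits the precision. In the simulated data the fit called 1 of 50 genes changed by 1 (log2), 20 of 50 changed by 2 and 44 of 50 changed by 4. It also called 6 unchanged genes. A gene that was not called may therefore still have changed. For genes dim on all 3 arrays of 1/5 the fold is only a bound, set against the higher of its own value and the lowest signal well above background on each array.

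The same replicate number did not pair arrays: the correlations of deviations from the group means for numbers 1, 2 and 3 were 0.08, -0.06 and 0.21. Alternatives were other scalings, a normexp background correction, other filters and probe rules, other sets of arrays, slide and replicate blocks, array weights, a robust fit, and leaving out each array. The comparison and the 30 gene lists were chosen with earlier results of these data known. Named genes were those called and the genes of smallest p with a symbol, no overlap and a difference of at least 1, to 10 a direction. To these were added 2 genes of smallest p for each list and in each direction of the interaction, and Ptgs1, Ptgs2, Myh6, Myh7, Tnnt2, Actc1, Nppa and Nppb. Other list members named, and the spindlin-like family, were chosen after their values were seen. Some genes that this rule selects are not reported here.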

Additional observations from a re-analysis of the deposited data

Results flagged for a closer look

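LOC291521, a spindlin-like gene, had a difference between concentration 1 and 1/5 that itself differed between 6 h and 24 h by a measured 5.09 (adjusted p 0.0121 by the interaction term in limma). The gene was well above background on the 3 arrays of concentration 1 at 6 h, on no array of 1/5 at 6 h and on none of either concentration at 24 h. The measured 5.09 therefore rests on 3 groups that have only a bound, and it is not a fold. The call was lost when any 1 of the 3 arrays of 1/5 at 6 h was left out, and with quantile normalization, a normexp background correction or robust moderation. The arrays of the 2 concentrations at 24 h lay on different slides.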

How the results depend on the processing

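The count of called genes was 2, and 1 for the interaction with time. With a normexp background correction the counts were 1 and 0, and with only genes well above background on all 6 arrays 0 and 0 (625 and 1401 genes at an unadjusted p under 0.05). With slide as a random block they were 10 and 5, all higher. Slide as a fixed block gave 7 genes (1 higher, 6 lower) and the shared slide alone 8 (all lower), in both with neither Synpo nor LOC291521, and no interaction could be fitted there. Array weights, which ran from 0.0388 to 8.05, gave 3362 genes (2012 higher, 1350 lower) and 1000 for the interaction. Without array 3 of 1/5 at 24 h, an alternative chosen after seeing the data, 7 genes were called, all higher. For the interaction, quantile normalization and the robust fit gave 0 and the fit with no filter 2 (1994, 1889 and 2055 genes at an unadjusted p under 0.05).

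With a replicate block 2 genes were called, LOC291521 and Bicral, and the interaction gave 0 (786 and 1427 at an unadjusted p under 0.05). The replicate numbers did not pair the arrays. Leaving out each of the 6 arrays in turn gave 1 to 2 genes, and 0 to 1 for the interaction. The count was 1 without array 2 or 3 of concentration 1 or array 2 of 1/5. Without array 2 of 1/5, 367 genes had an unadjusted p under 0.05, and without array 3 of 1/5, 1206.

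List medians relative to all genes kept within the spread between arrays for most lists and settings. Exceptions under quantile normalization were oxidative phosphorylation (0.043) and ribosomal protein genes (0.017). Under normexp they were heat shock (0.14) and mesothelial genes (0.55), with no filter erythroid genes (0.16), and on genes above background on all 6 arrays NF-kB (0.15), clock (0.11) and mesothelial genes (0.27). With slide as a fixed block or within the shared slide they were heat shock (0.17), apoptosis (-0.057), cell cycle (-0.0073 and -0.0074), drug metabolism (0.41), ribosomal (-0.30), erythroid (0.71) and mesothelial genes (0.47). With array weights they were calcium handling (-0.059), apoptosis (-0.070) and mesothelial genes (0.43). Leaving out arrays gave 0.0097 to 0.20 for calcium handling, -0.098 to 0.015 for apoptosis, -0.060 to 0.11 for cell cycle, 0.021 to 0.46 for hypoxia and glycolysis, 0.22 to 0.57 for clock, 0.22 to 0.67 for erythroid and 0.42 to 0.82 for mesothelial genes. The causes were not tested.

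For Synpo and LOC291521 the direction was the same under every alternative. No value called in the main fit changed sign. Among the other named genes, array weights called 57, and other alternatives made 8 calls, which fell on Bicral, Gjb6, Rhag and Gtf2h2. Dim genes are limited by the background: 211 genes were not well above it on any 1/5 array and 119 on no array of concentration 1.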

Other observations

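Gene families were also read by the words in the array files' gene descriptions, a choice made after values had been seen. The 551 olfactory receptor genes, which detect odorants in the nose, had a median signal of -4.24 and a median difference of 0.36. Of these, 128 (23.2%, against 11.9% of all genes) were higher at concentration 1 without overlap and 10 (1.81%, against 14.2%) lower. Among the 6103 genes of lowest mean signal, 1034 were higher and 188 lower without overlap, so signal level and family are not separated here. No olfactory receptor gene was called. Under quantile normalization their median was 0.16, and 44 instead of 62 were higher by more than 1. The 40 vomeronasal or pheromone receptor genes had a median of 0.30, and the 35 protocadherin genes, cell adhesion genes of neurons, a median of 0.26. The 83 immunoglobulin genes stood at 0.29, the 47 keratin genes at 0.34 and the 65 T cell receptor genes at 0.23. The 391 zinc finger genes had a median of 0.17, the 242 genes described as mitochondrial 0.05, and the 492 genes described as ribosomal proteins -0.12. With arrays centred on their median, which moved the median of all genes to -0.17, the zinc finger and mitochondrial medians were below 0. The median signal of these families ran from -4.53 for vomeronasal receptors to -0.02 for ribosomal proteins.

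The fit on the 6 arrays alone gave 5096 genes with an unadjusted p under 0.05 (16.7%), against 855 in the fit on all 20 arrays (2.80%). The median standard error was 0.23 in the former and 0.49 in the latter. Both fits called 2 genes, with none in common.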
